A study of Mus musculus with 15 samples.

Results

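The genes described here are 10 transcriptional outputs of the ERK branch of MAP kinase signalling, measured by RNA sequencing in mouse intestinal organoids. They were chosen by symbol and are Dusp4, Dusp5, Dusp6, Spry1, Spry2, Spry4, Spred1, Etv4, Etv5 and Phlda1, out of 43629 genes in the count table. All 10 were found in it and all 10 passed the filter on low values in each comparison. The organoids were of mixed strain background (C57B6/129), and 13 libraries entered the comparisons. WT is 5 libraries grown in ENR media (EGF, Noggin and R-spondin), of which 4 come from undeleted Apc flox/flox lines (libraries 1, 2, 5 and 6) and 1 is a dox-naive culture (library naive). Apc is 4 libraries of Apc delta/delta organoids, numbered as the same lines 1, 2, 5 and 6, and P-Rspo3 is 4 libraries with the Ptprk-Rspo3 rearrangement (15d, 4d, M and F), both grown in EN media, without R-spondin. In the study the rearrangement was made by dox-induced CRISPR/Cas9 and cultures were then expanded as polyclonal populations. Against WT, genotype and medium therefore cannot be told apart, whereas Apc and P-Rspo3 share their medium. Apc and P-Rspo3 come from different lines, however, Apc flox lines and dox-inducible CRISPR cultures. Between Apc and P-Rspo3, line and genotype cannot be told apart, for any of the genes. P-Rspo3 against WT shares most of this limit, since 4 of the 5 WT libraries are of Apc flox lines. EGF was present in every group.

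EGF receptor signalling runs through RAS, RAF, MEK and ERK, and active ERK switches on genes that both carry out its programme and restrain it. DUSP phosphatases remove the activating phosphates from ERK, Sprouty and Spred proteins act further up, around RAS and RAF, and ETS factors such as Etv4 and Etv5 carry the signal to transcription. In the intestinal crypt this pathway sustains proliferation next to Wnt signalling, and transcripts of these genes are widely used as a read-out of pathway activity.

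Library totals ran from 28902729 to 35528495 counts. Counts of Rspo3 were 0 to 1 in WT, 7 to 57 in Apc and 539 to 1079 in P-Rspo3. Apc had 9265 to 10953 counts in the Apc libraries against 4046 to 6810 in WT, which does not check the deletion because the counts are summed over the whole gene. The labelled tissue matched its markers, since the 8 epithelial markers summed to between 2458 and 3269 FPKM in every library. The labels do not say whether libraries of a group are separate cultures or animals, so p-values cover the spread between these libraries, which may be technical.

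In Apc organoids the outputs did not move as a block. Dusp4, Spry1, Etv5 and Phlda1 rose between 2.2-fold and 2.97-fold over WT, Dusp5 fell 6.03-fold, and Dusp6 and Etv4 did not pass the test. Calls needed both a log2 fold change beyond 1 in either direction and, in edgeR's quasi-likelihood test, a p-value under 0.05 after Benjamini-Hochberg adjustment. By that rule 4 of 10 members were called higher, where 12.2% of the 16749 genes tested were, and 1 of 10 lower, where 14.1% were. By the adjusted p alone, 7 of 10 were higher (30.0% of all genes) and 1 of 10 lower (29.0%). The median log2 fold change of the 10 was 0.59, beside 0.00 for all genes tested. Fewer cells of a type and less RNA per cell cannot be told apart in such bulk libraries.

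In P-Rspo3 organoids no member was called against WT, where 0.00625% of 15992 genes were called in either direction. That background moved with 1 library and with the tool. Without the WT naive library 166 genes were called higher and 100 lower of 15756, or 1.69%, and with DESeq2 55 higher and 173 lower of 15992, or 1.43%, and the members called were 0 of 10 in both. At an unadjusted p under 0.05 in the edgeR test there were 2 of 10 members, beside 2159 of the 15992 genes tested. The 2 members were Dusp4 and Dusp6, both lower. DESeq2 and limma also called 0 of 10 with the fold threshold. The median log2 fold change of the 10 was -0.20. Set directly against each other, Apc exceeded P-Rspo3 at the same 4 genes and lay below it at Dusp5. Here 4 of 10 were called higher (13.4% of 16456 genes) and 1 of 10 lower (13.3%), and by the adjusted p alone 7 of 10 were higher (28.7%) and 1 of 10 lower (27.7%). The comparisons share libraries, so they are not separate evidence.

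**Figure D1:**
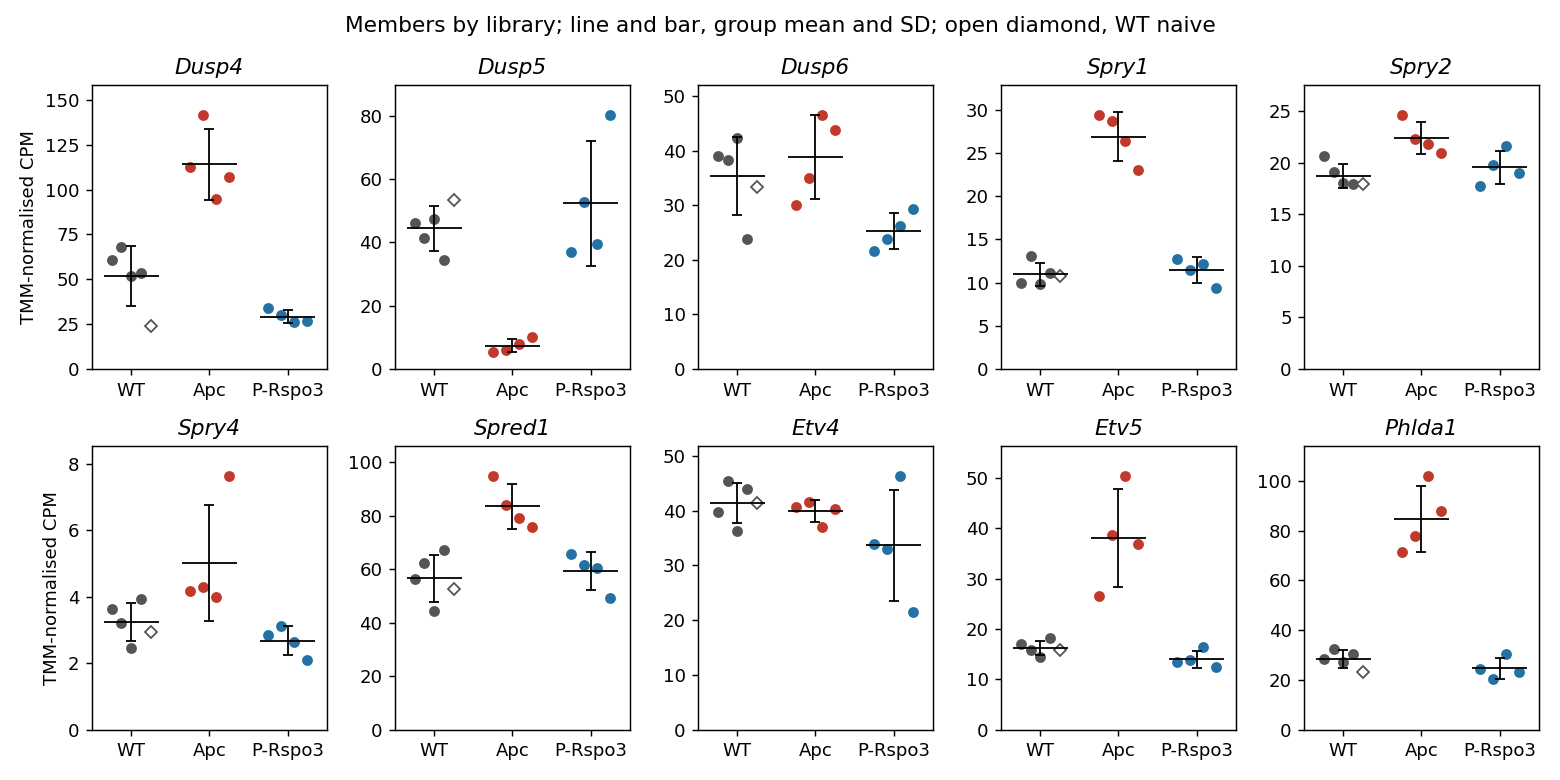
TMM-normalised CPM, read counts scaled to library size, of each member by library (y axis, from 0) for 5 WT, 4 Apc and 4 P-Rspo3 libraries; lines and bars are the group mean and SD, and the open diamond is the WT naive library. The 4 Apc libraries lie above all others at Dusp4, Spry1, Etv5 and Phlda1 and below all others at Dusp5, and the naive library sits with P-Rspo3 at Dusp4.

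Dusp5, on chromosome 19 (GRCm38 chr19:53529109-53542431, plus strand), encodes a nuclear phosphatase specific for ERK. Levels are given as CPM (counts scaled to a common library size, with TMM factors), the scale of the test. In WT Dusp5 measured 46.0, 41.2, 47.3 and 34.4 in lines 1, 2, 5 and 6 and 53.3 in the naive library. In Apc it measured 5.50, 6.01, 7.99 and 10.0 in lines 1, 2, 5 and 6. Every Apc library was below every WT and P-Rspo3 library, and each Apc library was below the WT library that carries the same number in its title. In P-Rspo3 the values were 36.9 in 15d, 52.9 in 4d, 39.4 in M and 80.1 in F. The log2 fold change of Apc against WT was -2.59 (SE 0.20, adjusted p = 1.3e-06, edgeR). Against P-Rspo3 it was -2.82 (SE 0.30, adjusted p = 4e-05, edgeR). P-Rspo3 and WT overlapped, with a log2 difference of 0.25 and a 95% interval of -0.24 to 0.73, and without the high library F the difference was -0.03.

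The promoter of Dusp5 is shown because this gene moved against the others. Windows of 300 bases, 250 before the start site and 50 after it, were available from RefSeq (GRCm38.p6) for 6 of the 10 members, Dusp5, Dusp6, Spry1, Spry2, Spred1 and Etv5. The window of Dusp5 holds a pair of CArG boxes, the sequence bound by serum response factor, which works with ERK-regulated ETS factors. They lie end to end, at -82 to -73 and -72 to -63 from the start site. Below, bases -180 to -51 of Dusp5 are set beside the same stretch of Spry1, which rose in Apc, with CArG boxes in capitals.
Dusp5 (chr19:53528965-53529094, plus strand): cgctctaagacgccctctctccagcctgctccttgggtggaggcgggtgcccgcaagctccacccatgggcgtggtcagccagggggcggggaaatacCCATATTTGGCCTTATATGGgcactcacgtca
Spry1 (chr3:37639767-37639896, plus strand): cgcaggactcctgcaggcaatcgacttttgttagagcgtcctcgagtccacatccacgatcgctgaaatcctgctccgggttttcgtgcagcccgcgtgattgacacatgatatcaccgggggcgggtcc

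A CArG box (CC, then 6 bases of A or T, then GG, the same on both strands) was found in 1.63% of 32851 promoter windows and in 1 of the 6 members with a window. Windows with at least 2 boxes numbered 6, or 0.0183%. Of 4 further motifs searched on both strands, CCGGAA (an ETS core, 14.9% of windows) was found in Spry2. GGAAGT (another ETS core, 23.8%) was found in Dusp5 at -193 to -188 and in Etv5. In Etv5 it lay only in the window at chr16:22438319-22438618, wholly inside the gene, and not in the other Etv5 window. None of these motif matches overlapped another. The last bases of that Etv5 window, and of the Spred1 window, were found in no annotated transcript of their gene. TGANTCA (AP-1, 7.81%) and CTTTGAT (TCF/LEF, 3.73%) were in no member's window. The motifs were chosen with the windows in view, so these matches only describe the sequence.

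Dusp4 (chr8:34807297-34819894, plus strand) is the other mainly nuclear phosphatase of the set and also acts on JNK. In Apc it measured 113, 141, 94.7 and 107 CPM in lines 1, 2, 5 and 6. In WT it measured 60.6, 68.0, 51.8 and 53.7 in the same lines, but 23.97 in the naive library. P-Rspo3 gave 33.7 in 15d, 30.1 in 4d, 26.0 in M and 26.8 in F. The Apc libraries thus stood above all others, and the naive library lay below every P-Rspo3 library. Apc exceeded WT by a log2 fold change of 1.14 (SE 0.24, adjusted p = 0.0021, edgeR) and P-Rspo3 by 1.97 (SE 0.13, adjusted p = 3.1e-06, edgeR). Without the naive library the change over WT was 0.95 (adjusted p = 0.00017, edgeR), and with lines entered as a replicate block it was also 0.95 (adjusted p = 6.1e-05, edgeR), both under the fold threshold.

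P-Rspo3 measured less Dusp4 than WT by 0.82 on the log2 scale, with a 95% interval of -1.36 to -0.27, and this missed the threshold in edgeR (adjusted p = 0.20). In DESeq2 the adjusted p was 0.032 at a log2 fold change of -0.82. The answer depends on which WT libraries serve as controls. Without the naive library the difference was -0.998 (adjusted p = 0.0015, edgeR), since the flox lines averaged 58.5 ± 7.33 CPM (SD, n = 4) and P-Rspo3 29.2 ± 3.52 (SD, n = 4). All 4 remaining controls are then of Apc flox lines, so line and rearrangement cannot be told apart in that comparison, for this gene or any other.

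Dusp6 (chr10:99263231-99267489, plus strand) encodes the cytoplasmic ERK phosphatase that is a common marker of pathway activity. Its WT values were 39.0, 38.3, 42.3 and 23.8 CPM in lines 1, 2, 5 and 6 and 33.3 in the naive library. The Apc values were 30.0, 35.0, 46.5 and 43.8 in lines 1, 2, 5 and 6, and P-Rspo3 gave 21.6 in 15d, 23.9 in 4d, 26.3 in M and 29.4 in F. Apc and WT overlapped over most of their range, with Apc above WT in lines 5 and 6 and below it in lines 1 and 2. Their log2 difference was 0.13 with a 95% interval of -0.26 to 0.52 (adjusted p = 0.55, edgeR). Apc lay above P-Rspo3 by 0.62 (SE 0.15, adjusted p = 0.0070, edgeR), in non-overlapping libraries and below the fold threshold. P-Rspo3 against WT gave -0.47 with an interval of -0.83 to -0.12 and an adjusted p of 0.23 in edgeR. The 3 phosphatases therefore gave 3 different answers in Apc, with Dusp4 higher, Dusp6 overlapping WT and Dusp5 lower.

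**Figure D2:**
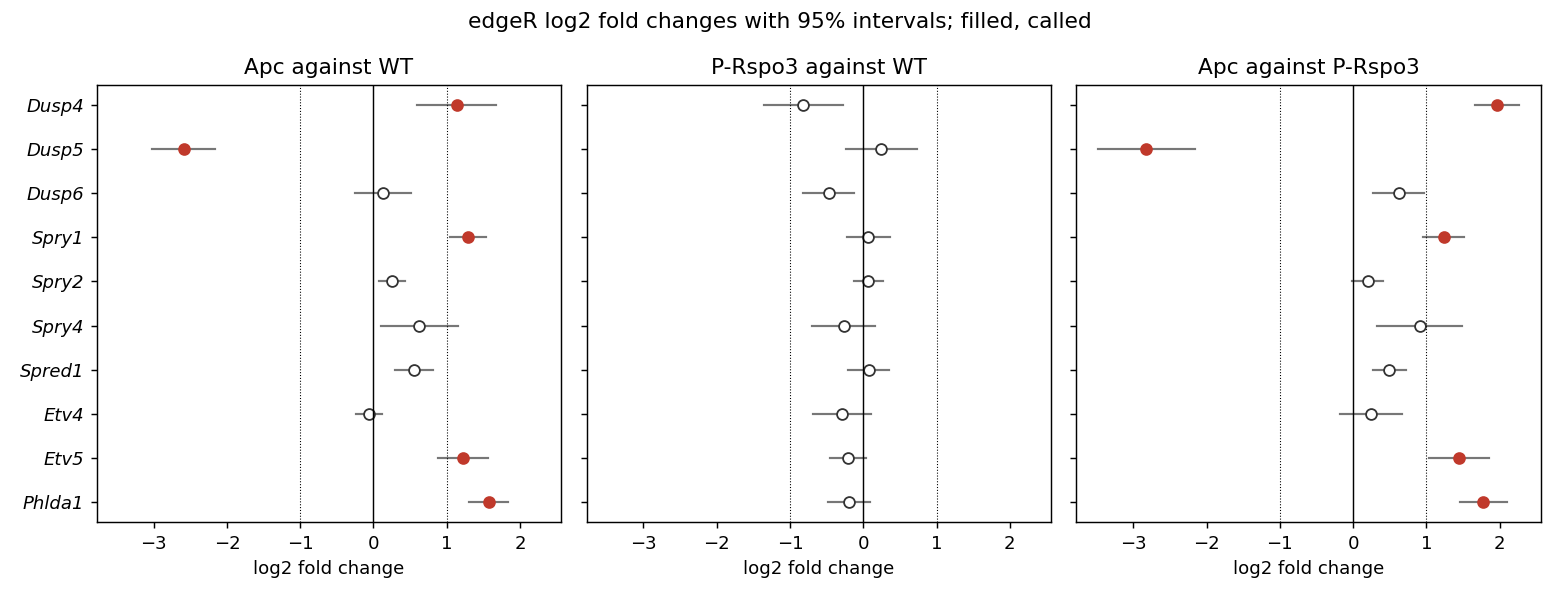
Log2 fold changes (x axis) of the 10 members (y axis) in the 3 comparisons, as edgeR estimates with 95% intervals; filled points are called and dotted lines mark a log2 fold change of 1 and -1. Dusp4, Spry1, Etv5 and Phlda1 are called higher and Dusp5 lower in both comparisons of Apc, and no point is filled for P-Rspo3 against WT.

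Among the Sprouty and Spred genes, which damp signalling upstream of ERK, Spry1 (chr3:37639947-37644598, plus strand) moved most in Apc. It measured 29.4, 28.7, 26.4 and 23.1 CPM in Apc lines 1, 2, 5 and 6. WT gave 9.96, 13.0, 9.82 and 11.2 in those lines and 10.7 in the naive library, and P-Rspo3 gave 12.8 in 15d, 11.5 in 4d, 12.1 in M and 9.34 in F. The lowest Apc library was well above the highest of the others. The log2 fold change was 1.29 over WT (SE 0.11, adjusted p = 3.2e-06, edgeR) and 1.23 over P-Rspo3 (SE 0.12, adjusted p = 2.9e-05, edgeR). P-Rspo3 and WT differed by 0.07, with a 95% interval of -0.23 to 0.37.

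Spred1 (chr2:117121374-117182279, plus strand), which holds neurofibromin at the membrane near RAS, showed a smaller rise. Apc ranged from 75.7 to 94.8 CPM, WT from 44.2 to 67.3 and P-Rspo3 from 49.3 to 65.8. The Apc libraries did not overlap either group, with log2 fold changes of 0.55 over WT (SE 0.12, adjusted p = 0.0018, edgeR) and 0.49 over P-Rspo3 (SE 0.10, adjusted p = 0.0024, edgeR). Spry2 (chr14:105891947-105896819, minus strand), the Sprouty gene with the highest level per length in WT, differed little between groups. It measured 21.0 to 24.6 CPM in Apc, 17.9 to 20.7 in WT and 17.8 to 21.7 in P-Rspo3. Its log2 difference of Apc from WT was 0.25 (SE 0.08, adjusted p = 0.021, edgeR), and with the replicate block the adjusted p was 0.062. Against P-Rspo3 the difference was 0.20 with a 95% interval of -0.01 to 0.41 and did not pass.

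Spry4 (chr18:38586247-38601415, minus strand) was the lowest of the 10 by level, at 57 to 318 counts a library. In Apc it measured 4.17, 4.29 and 4.01 CPM in lines 1, 2 and 5 but 7.64 in line 6. WT ranged from 2.46 to 3.95 and P-Rspo3 from 2.09 to 3.12, so even the lower Apc libraries stood just above them. The log2 fold change over WT was 0.63 (SE 0.24, adjusted p = 0.040, edgeR), 0.35 without Apc line 6 (adjusted p = 0.15, edgeR) and 0.56 with the replicate block (adjusted p = 0.051, edgeR). Over P-Rspo3 it was 0.91 (SE 0.26, adjusted p = 0.013, edgeR) and 0.63 without Apc line 6 (adjusted p = 0.024, edgeR).

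Etv4 and Etv5 are close relatives of the PEA3 group of ETS factors, and their levels parted in Apc. Etv5 (chr16:22381309-22439719, minus strand) measured 26.6, 38.8, 50.4 and 36.8 CPM in Apc lines 1, 2, 5 and 6. WT gave 17.0, 15.7, 14.4 and 18.2 in those lines and 15.9 in the naive library, and P-Rspo3 gave 13.4 in 15d, 13.8 in 4d, 16.3 in M and 12.5 in F. Every Apc library was above all others, although line 1 rose least. The log2 fold change was 1.22 over WT (SE 0.16, adjusted p = 5.6e-05, edgeR) and 1.45 over P-Rspo3 (SE 0.18, adjusted p = 0.00012, edgeR). Etv5 in P-Rspo3 differed from WT by -0.21, with a 95% interval of -0.46 to 0.04.

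Etv4 (chr11:101769742-101785371, minus strand) measured 40.6, 41.6, 37.0 and 40.4 CPM in Apc lines 1, 2, 5 and 6. In WT it was 39.8, 45.5, 36.4 and 43.9 in those lines and 41.4 in the naive library. Apc lay inside the WT range, with a log2 difference of -0.06 and a 95% interval of -0.23 to 0.11. P-Rspo3 was the most scattered group, at 33.9 in 15d, 33.0 in 4d, 46.3 in M and 21.4 in F. The difference of P-Rspo3 from WT was -0.29, with an interval of -0.69 to 0.10. On FPKM, which is not scaled by TMM, Etv4 in Apc was 0.28 above WT by limma on log2(FPKM + 1) (adjusted p = 0.0065), in a comparison where the median of all genes shifted by 0.17, so its direction in Apc flips with the scale.

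Phlda1 (chr10:111506286-111508645, plus strand) encodes a pleckstrin homology-like protein that counts among transcriptional signatures of MAPK activity and is also found in crypt progenitors. It measured 71.4, 77.7, 102 and 88.0 CPM in Apc lines 1, 2, 5 and 6. WT gave 28.3, 32.6, 27.4 and 30.4 in those lines and 23.1 in the naive library, and P-Rspo3 gave 24.6 in 15d, 20.5 in 4d, 30.5 in M and 23.3 in F. The lowest Apc value was more than double the highest of the other groups. Phlda1 had the largest rise of the 10 over WT, at 1.57 log2 (SE 0.12, adjusted p = 1.5e-06, edgeR), or 2.97-fold. It was 1.78 above P-Rspo3 (SE 0.14, adjusted p = 8.8e-06, edgeR), and P-Rspo3 differed from WT by -0.19 with an interval of -0.48 to 0.09.

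Compared per length, as FPKM, Phlda1 also had the highest mean of the members in every group. In WT it averaged 26.5 ± 3.99 FPKM (SD, n = 5), followed by Etv4 at 18.1 ± 1.21, Dusp5 at 14.3 ± 2.13 and Dusp4 at 14.1 ± 4.59. Dusp6, Spred1 and Spry2 came next at 10.3 ± 1.91, 8.72 ± 1.59 and 7.44 ± 0.49. Spry1 and Etv5 were lower, at 3.51 ± 0.44 and 3.26 ± 0.40, and Spry4 was lowest at 0.58 ± 0.12. Of neighbours in that order, Phlda1 and Etv4, Spry2 and Spry1, and Etv5 and Spry4 did not overlap between libraries, and all the others did. In P-Rspo3 the first and last places were the same, with Phlda1 at 23.9 ± 3.70 and Spry4 at 0.49 ± 0.10 FPKM (SD, n = 4). Phlda1 overlapped the next member there, Dusp5, and in library F Dusp5 was the higher, at 24.7 against 21.0 FPKM.

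The order in Apc was different. Phlda1 led at 93.6 ± 13.6 FPKM (SD, n = 4) and Dusp4 moved to second place at 37.8 ± 6.13. Spry1, at 10.5 ± 1.07, drew level with Spry2, at 10.7 ± 0.63, and their libraries overlapped. Dusp5 dropped to ninth of the 10 at 2.90 ± 0.82 FPKM, above only Spry4 at 1.10 ± 0.41. Dusp4 and Dusp5, with level means in WT, were thus far apart in Apc, Dusp4 being the higher. The WT means hide the naive library, which had 6.48 FPKM of Dusp4 and 17.2 of Dusp5. In P-Rspo3 Dusp5 was also the higher, at 17.1 ± 5.58 FPKM against 8.17 ± 1.30 for Dusp4 (SD, n = 4).

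Single libraries shaped several of these spreads. In WT, library 5 was the lowest of its group at 5 of 10 members by TMM-scaled CPM, and library 6 at 3. In Apc, line 1 was lowest at Dusp5, Dusp6, Etv5 and Phlda1 and highest at Spry1, Spry2 and Spred1. In P-Rspo3, library F was lowest at 5 members, among them Etv4 and Etv5, and highest at Dusp5 and Dusp6.

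The rest of the pathway was followed in 61 further genes in 6 lists, of which 55 passed the filter in Apc against WT. There 14 of 55 were called higher and 3 of 55 lower, where 12.2% and 14.1% of all genes were, with a median log2 fold change of 0.09. In P-Rspo3 against WT 54 were tested and none was called by edgeR, by DESeq2 or by limma. Of all 15992 genes, edgeR called 0.00625% and DESeq2 1.43% there. At an unadjusted p under 0.05 in edgeR there were 6 of 54, beside 2159 of the 15992 genes. In Apc against P-Rspo3, 14 of 55 were called higher and 3 of 55 lower, where 13.4% and 13.3% of all genes were.

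Of 20 core genes of the kinase cascade, 2 were called lower in Apc against WT and 0 higher, in edgeR, shares below the 14.1% and 12.2% of all genes. By the adjusted p alone 5 of 20 were higher and 6 of 20 lower, where 30.0% and 29.0% of all genes were. Ksr1, a scaffold of RAF, MEK and ERK, fell to a log2 fold change of -2.18 (SE 0.12, adjusted p = 1.6e-07, edgeR). Map2k2, the gene of MEK2, was the other, at -1.15 (SE 0.08, adjusted p = 5.1e-07, edgeR). On FPKM by limma it stayed lower at -0.87, inside the fold threshold. Mapk3 (ERK1) was lower by less, at a log2 fold change of -0.79 (adjusted p = 1.3e-05, edgeR). On FPKM, which is not scaled by TMM, Mapk3 averaged 126 ± 10.1 in Apc (SD, n = 4) and 175 ± 13.8 in WT (SD, n = 5). Egfr and Braf were 0.56 and 0.43 higher and Map2k1 0.42 lower on the log2 scale, all past the adjusted p and none past the fold threshold.

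Of the list of immediate early genes, many of which respond to ERK within minutes, 3 of 9 tested were called in Apc against WT. All 3 were higher, where 12.2% of all genes were called higher and 14.1% lower. Fosl1, an AP-1 subunit, rose by 2.72 log2 (SE 0.23, adjusted p = 3.2e-06, edgeR), from 18 to 38 counts a library in WT to 158 to 351 in Apc. Jun, its partner, rose by 1.43 (SE 0.12) and Ier3, a stress and survival gene, by 1.88 (SE 0.28). Egr1, the textbook immediate early gene, stood at a log2 difference of 0.00 (SE 0.18), and Fos at -0.43 (SE 0.27, adjusted p = 0.20, edgeR), so the list was mixed, with a median of 0.04.

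Of 8 other feedback regulators tested in Apc against WT, 3 were called higher and 0 lower by edgeR, where 12.2% and 14.1% of all genes were, with a median log2 fold change of 0.90. Dusp1 (0.16), Spred2 (0.14) and Errfi1 (-0.12) did not pass the adjusted p. Lrig1, which restrains EGF receptors and marks crypt stem cells, rose by 1.28 (SE 0.10) in edgeR. On FPKM, a different scale from that fold change, Lrig1 averaged 32.3 ± 4.56 in WT (SD, n = 5) and 97.4 ± 7.54 in Apc (SD, n = 4). Dusp9, a cytoplasmic ERK phosphatase related to Dusp6, rose by 2.27 (SE 0.22). Spred3 was called at 1.10 (SE 0.41, adjusted p = 0.038, edgeR), but its adjusted p was 0.18 without Apc line 6 and 0.10 with the replicate block, and it also lost the call without any 1 of WT lines 1, 2 and 6 or the naive library. Over P-Rspo3, Dusp7 (log2 fold change 1.18) and Il17rd (2.14), both inhibitors of ERK signalling, were called as well, 5 of 8 in all where 13.4% of all genes were called higher, and Spred3 among them was at 0.94 without Apc line 6. Dusp10, which acts on JNK and p38 rather than ERK, was the single gene of 3 in its list called in Apc against WT, at 1.80 (SE 0.18). Dusp16 and Dusp8, the others of that list, were lower by the adjusted p alone, at -0.36 and -0.47 in edgeR.

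Of 12 other ETS factors tested in Apc against WT, 4 were called higher and 1 lower, where 12.2% and 14.1% of all genes were. Elk3, a partner of serum response factor, went from 4 to 13 counts a library in WT and 3 to 8 in P-Rspo3 to 725 to 1476 in Apc, a log2 fold change of 6.51 over WT (SE 0.31, adjusted p = 5.2e-08, edgeR). Ets2, itself activated by ERK, rose 3.80-fold in edgeR. On FPKM, which is not scaled by TMM, Ets2 averaged 45.8 ± 6.73 in WT (SD, n = 5) and 219 ± 31.7 in Apc (SD, n = 4). Ehf, an epithelial factor, was called at 1.15 and Elk1, another serum response partner, at 1.03, the latter falling just under the fold threshold without Apc line 2 or without WT line 5. Spdef, a factor of goblet and Paneth cells, fell by 2.79 on the log2 scale (SE 0.32, adjusted p = 2.8e-05, edgeR). Ccnd1, Epha2 and Epha4, which are used as read-outs of MAPK activity, all rose, by 2.08, 1.98 and 3.64 on the log2 scale in edgeR. All 3 genes of this list were called higher, where 12.2% of all genes were. Ccnd1 is also a known Wnt-responsive gene.

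**Figure D3:**
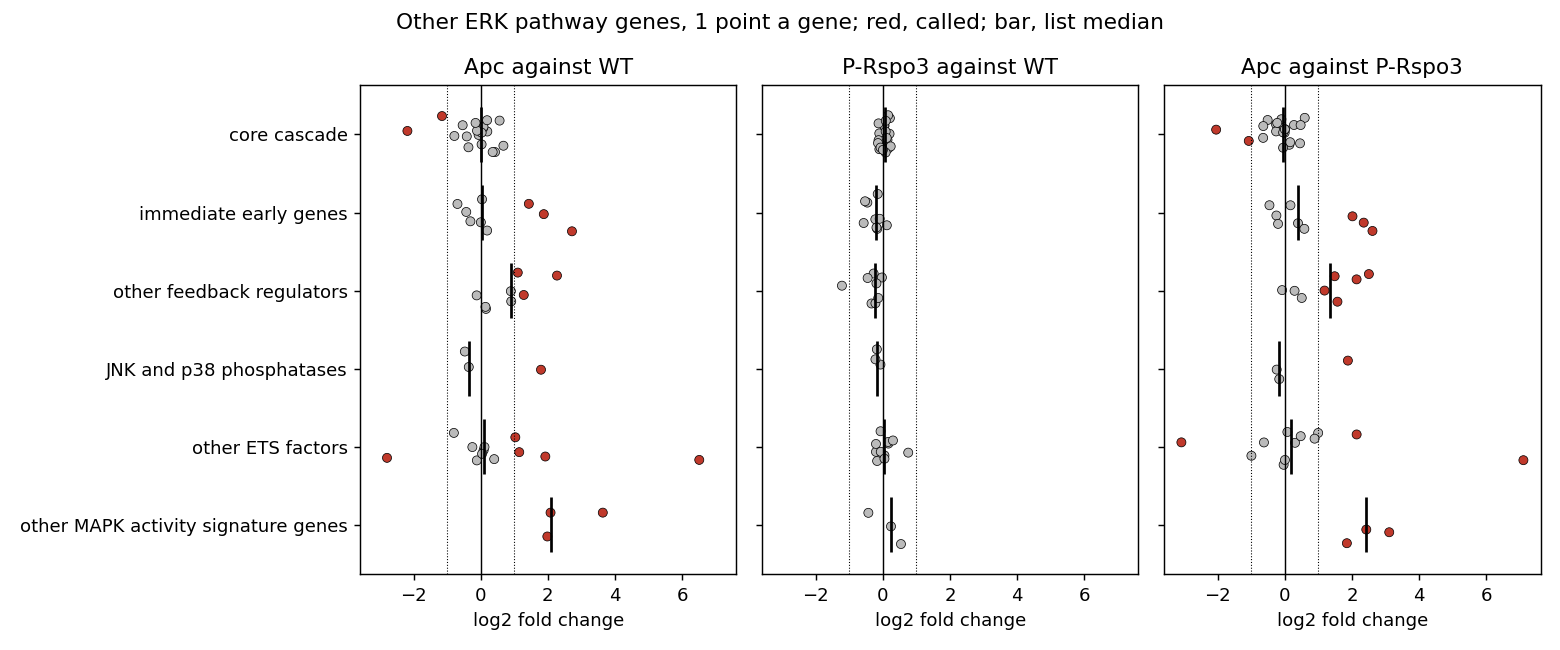
Log2 fold changes (x axis) of the other ERK pathway genes in 6 lists (y axis), 1 point a gene, for the 3 comparisons by edgeR; red points are called, bars are list medians and dotted lines mark 1 and -1. In Apc against WT 14 points are red on the right and 3 on the left, and none is red in P-Rspo3 against WT.

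Cell type markers moved with Apc at the same time. All 8 enterocyte markers fell, and their summed level was 25.3 to 53.9 FPKM in Apc, 3219 to 9405 in WT and 2238 to 5224 in P-Rspo3. Of the 6 goblet markers 5 were called lower, with sums of 203 to 516 FPKM in Apc against 1822 to 2500 in WT. Of the 6 Paneth markers 5 were lower and Mmp7 was higher, with sums of 651 to 1566 against 6198 to 9866 FPKM. Of the 6 enteroendocrine markers 4 were lower (sums of 15.7 to 36.1 against 110 to 148 FPKM), as were 2 of the 4 tuft markers (3.41 to 8.29 against 5.13 to 9.92 FPKM). The 6 proliferation markers all had an adjusted p under 0.05 and were higher, summing to 683 to 743 FPKM in Apc against 364 to 438 in WT, although Mcm2 alone passed the fold threshold.

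Markers of other tissues stayed low. The 8 fibroblast and smooth muscle markers summed to 0.08 to 0.22 FPKM in WT, 0.26 to 0.44 in Apc and 0.24 to 0.64 in P-Rspo3. Col1a2, Col3a1 and Dcn had at most 3 counts in any library, and Col1a1, Acta2 and Myh11 at most 15. Pdgfra was called higher in Apc, at 54 to 73 counts against 0 to 4 in WT and 3 to 9 in P-Rspo3. Pdgfrb was called lower in Apc, at 0 to 8 counts against 18 to 39 in WT, and had 50 to 145 in P-Rspo3. The 6 immune markers summed to 0.25 to 0.49 FPKM in Apc and 1.51 to 2.98 in WT, with Itgam and Csf1r called lower. Itgam had 43 to 74 counts in Apc against 173 to 335 in WT, and Csf1r 1 to 20 against 41 to 290. Ptprc had 0 to 2 counts in Apc and 0 to 24 in WT, and Cd3e and Cd79a at most 3 in any library. The 4 endothelial markers summed to 2.35 to 2.68 FPKM in Apc against 0.34 to 0.51 in WT, and did not move together. Cdh5 was called higher, at 217 to 372 counts in Apc and 0 in every other library, as was Tek, at 134 to 260 against 5 to 17 in WT. Pecam1 was called lower, at 3 to 10 counts against 21 to 36, and Kdr had 0 in every library. The part of these shifts in cell type markers in the changes of the 10 members was not tested.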

How the data were processed

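Organoid RNA was sequenced and, per the study's methods and the submitters' processing notes, the authors mapped reads to GRCm38 with STAR and deposited raw HTSeq 0.6.0 counts per gene and Cufflinks 2.2.1 FPKM. The annotation release and strand setting are not given in the sources used here. Groups came from the labels. For 2 of 15 libraries the title and genotype label are not clear when read together, and these entered alternatives only. Counts were tested with edgeR 4.0.16 (R 4.3.3; TMM, quasi-likelihood F test) on genes reaching 0.1 FPKM in 4 or more libraries, adjusted over all genes tested, and called at an adjusted p under 0.05 and a log2 fold change beyond 1; SEs are derived from the F statistic. The test was tested on simulated data with known changes. DESeq2 1.42.0 (the tool of the study's methods) and limma 3.58.1 on log2(FPKM + 1) and log2(FPKM + 0.1) were alternatives. Symbols and positions are from GENCODE M21, and promoters from RefSeq. Apc and WT libraries share line numbers in their titles; same-numbered libraries deviated together only weakly (median correlation 0.09, 4 pairs, against -0.03 for the other 12). The members and lists were chosen with earlier results of these data known. All members, list genes called (at most 5 of a list and comparison, or the 3 with the smallest p in each direction) and some core kinases are named, while a few list genes are not reported here; Egr1, Fos, Dusp1, Dusp8, Dusp16, Errfi1, Spred2 and single markers of other tissues were named after their values were seen. Genes with 3 counts or fewer were read as not detectable, for counting error only.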

Additional observations from a re-analysis of the deposited data

Results flagged for a closer look

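Spry4 in Apc line 6, at 7.64 TMM-scaled CPM, stood apart from the other 3 Apc libraries, which lay between 4.01 and 4.29. It is 1 of 30 member-by-group sets of libraries examined in this way, and chance flags a share of about 0.05 of such sets.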

How the results depend on the processing

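Counts of called members kept to between 3 and 5 higher and 1 lower in both comparisons of Apc under every alternative that kept the fold threshold, and to 0 in P-Rspo3 against WT. Leaving out 1 library gave 3 to 4 members higher in Apc against WT (3 without the naive library, where Dusp4 fell to 0.95) and 4 to 5 in Apc against P-Rspo3 (5 without Apc line 5, where Spry4 reached 1.01). The replicate block gave 3 higher, without Dusp4, and otherwise changed no call of a member. Judged by the adjusted p alone, 7 members were higher in each comparison of Apc. For the other ERK pathway genes that rule gave 22 higher and 10 lower in Apc against WT, and 24 higher and 9 lower in Apc against P-Rspo3, of 55 each, where 30.0% and 29.0%, and 28.7% and 27.7%, of all genes passed it. Of 540 values of single members under alternatives, 533 kept direction and call, and 4 changed direction. Etv4 in Apc against WT went to 0.28 and 0.29 by limma on log2(FPKM + 1) and log2(FPKM + 0.1), where the median of all genes shifted by 0.17 and 0.28. In P-Rspo3 against WT, Dusp5 ranged from -0.0339 (without library F) to 0.3834 and Spred1 from -0.0048 (without WT line 5) to 0.1549 with 1 library left out. Etv4 in Apc against P-Rspo3 passed an adjusted p of 0.05 on FPKM (0.62, adjusted p = 0.022, limma) and without P-Rspo3 M (0.43, adjusted p = 0.042, edgeR). The causes were not tested. Spry4, at 57 to 318 counts, is the member most limited by depth.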

Other observations

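The titles and genotype labels of the 2 libraries left out of the groups are not clear when read together, so each is given as a single value. The library titled LIPO is labelled dox-naive WT in ENR media and had 0 Rspo3 counts. Its Dusp4 level was 11.3 FPKM, between the 6.48 of the WT naive library and the 13.6 to 18.3 of the flox lines, and it had 17.4 FPKM of Dusp5, 18.9 of Phlda1, 3.03 of Etv5 and 3.10 of Spry1. The library titled NAIVE_F is labelled P-Rspo3 in EN media and had 729 Rspo3 counts. It measured 11.0 FPKM of Dusp4, above the 7.00 to 9.81 of the 4 P-Rspo3 libraries, and 16.6 of Dusp5, 16.8 of Phlda1, 3.34 of Etv5, 3.24 of Spry1 and 12.5 of Etv4.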
